A study of Haplochromis burtoni and Lepidiolamprologus elongatus and Tropheus moorii with 25 samples.

Results

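Interferon-responding cells of the cichlid intestine are described here as single cells that carried at least 1 transcript tag of rsad2 and at least 1 of znfx1. Each tag, a unique molecular identifier (UMI), marks 1 captured transcript. The files keep 101710 cell barcodes, called cells below, once those under 500 UMIs or 250 genes are set aside. Of these, 545 (0.536%) met the rule. Members were thus chosen by their measured rsad2 and znfx1 counts alone. They came from 23 of 25 libraries. The study profiled dissociated intestine of 25 African cichlid species by droplet single-cell RNA sequencing, with 1 library per species. The labels give a species and the tissue for each library and no age, sex, diet or treatment, and no separate animals were named. Species therefore have no replicates, shares carry counting intervals only, and no pair of species was tested.

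Interferons are cytokines released when a cell senses viral nucleic acid, and in vertebrates they act on neighbouring cells through receptors, Janus kinases and transcription factors. These switch on a set of interferon-stimulated genes, whose products sense or destroy foreign RNA, alter nucleotide pools and raise antigen display. In the gut such genes are known in epithelial cells and in the lymphocytes and macrophages beneath them. The gene rsad2 encodes viperin, a radical SAM enzyme that makes a chain-terminating nucleotide, and znfx1 encodes a helicase-domain protein that binds viral RNA in mammals. Both are standard interferon-stimulated genes, and their own levels are given here as description, since they chose the cells.

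The 2 selecting genes differed widely in how common they were. At least 1 rsad2 UMI was found in 823 cells (0.809%) and at least 1 znfx1 UMI in 14555 cells (14.3%). Of cells with rsad2, 66.2% also had znfx1, against 13.9% of cells without rsad2. Both shares pool unlike libraries. Among cells without rsad2, the znfx1 share ran from 1.05% in Cyphotilapia frontosa to 45.6% in Telmatochromis vittatus. Within a library the gap varied, at 89.9% against 45.6% in Telmatochromis vittatus and 16.7% (of 6 cells) against 11.2% in Triglachromis otostigma. Of the 545 double-positive cells, 356 (65.3%) rested on a single rsad2 UMI, and the median znfx1 count was 5 UMIs. Just inside the rule stood 66 cells with 1 UMI of each gene. Just outside stood 225 cells with 1 rsad2 UMI and no znfx1, and 7533 cells with 1 znfx1 UMI and no rsad2. The level of dhx58, which encodes the RNA sensor LGP2, was 41.7 UMIs per 1000000 UMIs, written CPM below (exact Poisson 95% interval 20.8 to 74.7), in the 66 cells just inside. It was 24.0 (15.5 to 35.5) in the 225 cells with 1 rsad2 UMI alone and 17.1 (15.9 to 18.5) in the 7533 cells with 1 znfx1 UMI alone. Also outside, 53 cells with 2 or more rsad2 UMIs and no znfx1 stood at 109 (61.1 to 180). The 6477 cells with 2 or more znfx1 UMIs and no rsad2 stood at 46.4 (44.1 to 48.8). Neither lay below the 41.7 just inside. The other double-positive cells, grouped by UMIs of the 2 genes, stood at 174 to 224. Double-positive cells were somewhat deeper than the rest, with a median of 2460 UMIs against 2171. Their median mitochondrial share was 2.52%, against 3.6% in the other cells.

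Total counts per library ranged from 7016583 to 32569739 UMIs, and kept cells from 1072 to 6928. Any pair of libraries shared at most 17 kept barcodes. A barcode sequence of 16 double-positive cells also occurred in another library, and 0 were double-positive in both. Trematocara zebra stood apart in depth, with a median of 5957 UMIs per cell where the other libraries reached no higher than 3105. The files of Trematocara zebra and Haplotaxodon microlepis hold 2000 and 5000 barcodes, of which 1072 and 3462 were kept. Only these libraries held barcodes under 500 UMIs, and they were left out together in some alternatives. What this means for their shares and depth was not tested.

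Double-positive cells were unevenly spread over the species. Telmatochromis vittatus held 107, or 2.84% of its cells (exact binomial 95% interval 2.33 to 3.42%). Lepidiolamprologus attenuatus followed with 70 (1.82%, 1.42 to 2.29%), then Callochromis pleurospilus with 53 (1.37%, 1.03 to 1.79%), Shuja horei with 91 (1.31%, 1.06 to 1.61%) and Lepidiolamprologus elongatus with 56 (1.08%, 0.815 to 1.4%). These 5 libraries held 377 of the 545 cells, or 69.2%. The interval of Telmatochromis vittatus lay above that of every other library, while the intervals of Callochromis pleurospilus, Shuja horei and Lepidiolamprologus elongatus overlapped one another.

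The middle of the order was close packed. Neolamprologus brichardi held 31 double-positive cells (0.792%), Bathybates ferox 25 (0.579%), Tropheus moorii 21 (0.535%), Eretmodus cyanostictus 15 (0.366%), Cyprichromis coloratus 13 (0.369%) and Xenotilapia spiloptera 11 (0.256%). These 6 and the 5 above are the 11 libraries with at least 10 such cells, and together they hold 493 (90.5%). The median share over all 25 libraries was 0.256% (SD 0.689, n = 25). No double-positive cell was found in 2458 cells of Petrochromis orthognathus or in 5698 cells of Cyphotilapia frontosa, and 3 counts of those totals set upper limits of 0.122% and 0.0527%. These limits and intervals cover counting error only.

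Depth sets part of such a share, because a deep cell has more chances to show both genes. When each cell with at least 1000 UMIs was thinned to 1000, 209 of 83666 cells met the rule, and 18044 shallower cells were left out, 91 to 1374 per library. The thinned share was 1.45% in Telmatochromis vittatus, 1.01% in Lepidiolamprologus attenuatus, 0.682% in Shuja horei, 0.614% in Lepidiolamprologus elongatus and 0.367% in Callochromis pleurospilus. The same 5 libraries therefore stayed highest, with Callochromis pleurospilus last among them. In Trematocara zebra the 6 double-positive cells (0.56%) had a median of 40747 UMIs, and none of its 981 cells met the rule after thinning. In 3 of the 4 libraries with 2 double-positive cells each, Julidochromis ornatus, Haplotaxodon microlepis and Limnotilapia dardennii, those cells were also deep, with medians of 15911, 16977 and 15840 UMIs, and none remained after thinning. In the fourth, Neolamprologus brevis, the median was 1062.5 UMIs, and 1 cell met the rule after thinning.

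**Figure D1:**
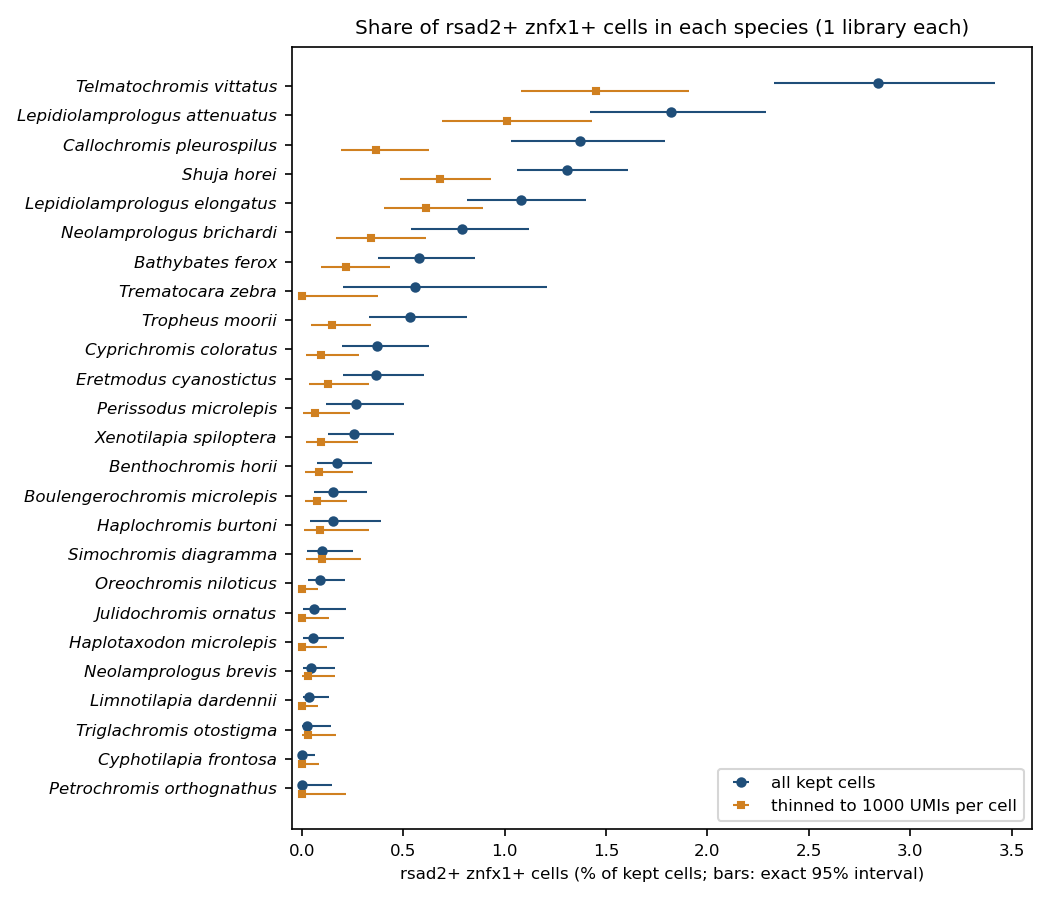
Share of rsad2+ znfx1+ cells (x axis, percent of kept cells) in the library of each species (y axis), for all kept cells (circles) and after thinning to 1000 UMIs (squares), with exact 95% intervals. Telmatochromis vittatus is highest on both measures, at 2.84% and 1.45%, and Trematocara zebra falls from 0.56% to 0 with thinning.

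The levels of both genes over all kept cells of a library followed much the same order at the top and diverged below it. In Telmatochromis vittatus znfx1 stood at 641 and rsad2 at 17.2 CPM, the highest of the 25 libraries for each gene. In Lepidiolamprologus attenuatus they stood at 321 and 14.3. Julidochromis ornatus had a high znfx1 level, 206 CPM, and 23.0% of its cells carried znfx1, yet its rsad2 level was 0.755 and it held 2 double-positive cells. Shuja horei showed the opposite lean, with znfx1 at 141 and rsad2 at 9.01 CPM. The lowest znfx1 level was 4.2 in Cyphotilapia frontosa. All species were counted against a single gene list whose source species is not given in the sources used here, and the part of sequence divergence in these levels was not tested.

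Lineage was read from 3 genes that the rule did not use: lck, a kinase of T-cell receptor signalling; csf1r, the receptor for macrophage colony-stimulating factor; and mogat2, an enzyme of triglyceride synthesis in fat-absorbing enterocytes. Of the 545 cells, 154 (28.3%) carried lck alone, 16 (2.94%) csf1r alone, 60 (11%) mogat2 alone and 9 (1.65%) more than 1 of them. The remaining 306 (56.1%) showed none of the 3. Among all kept cells the corresponding shares were 12.9%, 4.16%, 15.2%, 1.02% and 66.7%. Both sets of shares pool libraries of unlike make-up in unlike proportions, so they do not compare lineages within a library. A cell with none of the 3 is unclassified, not a separate type. Median depth differed strongly between these sets, at 2227.5 UMIs in the lck+, 6175 in the csf1r+, 12389 in the mogat2+ and 2215.5 in the unclassified double-positive cells.

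The mix differed from library to library. In Telmatochromis vittatus 52 of 107 double-positive cells were lck+ and 45 were unclassified, in a library where 40.0% of all kept cells carried lck. In Lepidiolamprologus attenuatus 31 of 70 were lck+, where 32.6% of all kept cells carried lck. In Lepidiolamprologus elongatus 22 of 56 were lck+ and 11 mogat2+, where 38.0% of all kept cells carried lck. In Shuja horei only 12 of 91 were lck+ and 70 were unclassified, with lck in 11.5% of its kept cells. All 6 double-positive cells of Trematocara zebra were mogat2+. Eretmodus cyanostictus also leaned to mogat2, with 6 of 15. The 16 csf1r+ cells came from 10 libraries, and no library had more than 2.

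**Figure D2:**
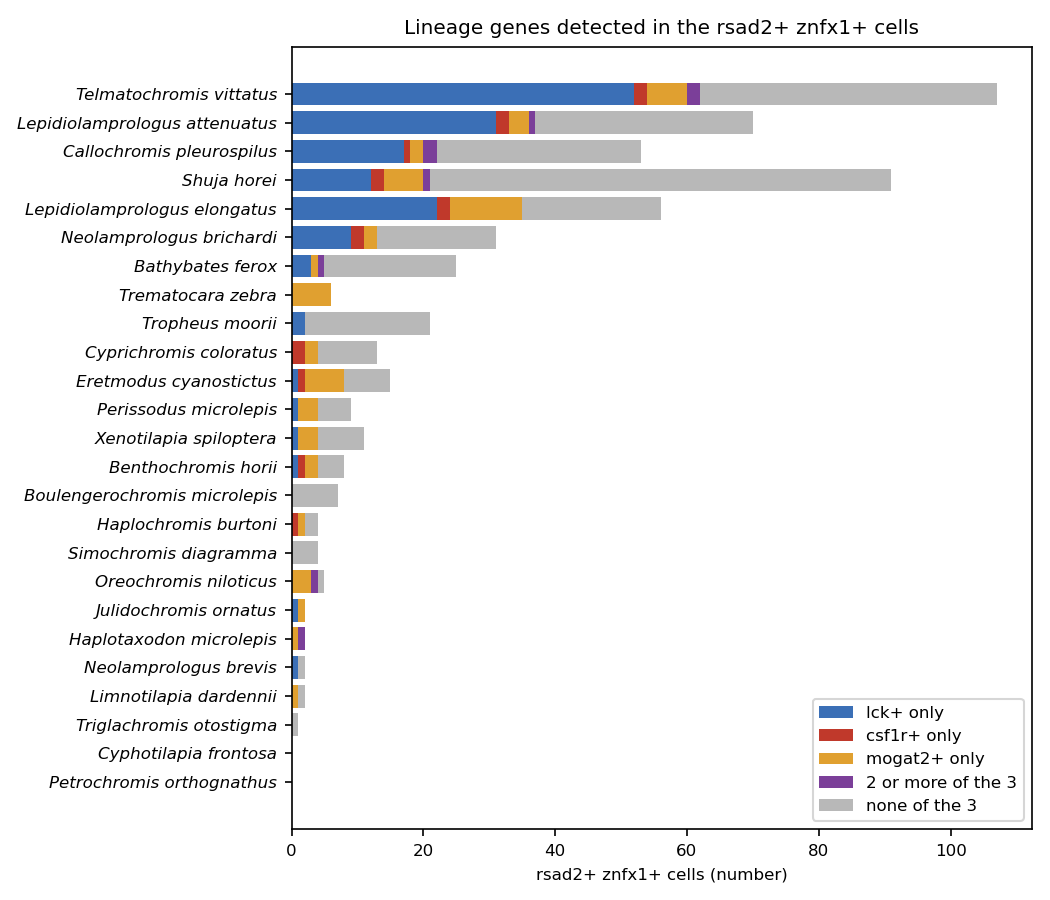
Number of rsad2+ znfx1+ cells (x axis) in the library of each species (y axis), coloured by the lineage genes detected in the same cell. The lck+ cells sit mainly in Telmatochromis vittatus (52), Lepidiolamprologus attenuatus (31) and Lepidiolamprologus elongatus (22), while 70 of the 91 cells of Shuja horei show none of the 3 genes.

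The rate of double-positive cells within each lineage was compared inside libraries after thinning to 1000 UMIs. The mean rate was 0.355% (SD 0.608, n = 24 libraries) in lck+ cells and 0.111% (SD 0.303, n = 24) in csf1r+ cells. The csf1r+ rate was lower in 7 libraries, higher in 1 and equal in 16, with a mean difference of -0.245 percentage points (SD 0.525). A 2-sided sign-flip permutation test gave p = 0.0238, or 0.0714 after Benjamini-Hochberg adjustment over the 3 lineage pairs. The lck+ rate less the mogat2+ rate averaged 0.186 points (SD 0.595, n = 25; adjusted permutation p = 0.208). The csf1r+ rate less the mogat2+ rate averaged -0.0515 points (SD 0.646, n = 24; adjusted permutation p = 0.787). None of the 3 differences passed the adjusted threshold of 0.05. These tests rest on 50 lck+, 3 csf1r+ and 4 mogat2+ double-positive cells that remained after thinning. Without thinning the lck+ less mogat2+ difference was 0.00266 points (adjusted permutation p = 0.987), in cells of very unequal depth. Free RNA in the droplets can place a UMI in a cell that does not express the gene. For these lineage genes, 3.29% of mogat2+ cells also carried lck and 2.24% carried csf1r. No cell class here is known to lack rsad2, so its background share was not measured.

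To see what else the double-positive cells express, each was set beside up to 5 other cells of the same library with the same lck, csf1r and mogat2 status and the nearest UMI total. Counts were summed per library for 493 double-positive and 2459 matched cells in the 11 libraries with at least 10 double-positive cells. Genes were tested by edgeR's quasi-likelihood test with the library as a block and Benjamini-Hochberg adjustment. Of 3146 genes tested, apart from the selecting genes, 59 were higher in the double-positive cells (1.88%) and 1 was lower (0.0318%). The 59 log2 fold changes ran from 0.62 to 3.95 with a median of 1.85. Of these genes, 47 rose by at least 1 on the log2 scale, 26 by at least 2, and 33 were higher in every one of the 11 libraries. Only 12 carry a gene symbol, and 47 have an identifier without a name. The filter on low counts, used before each test, could admit a gene through the double-positive cells alone. The fold change sizes and the count of 33 therefore lean upwards and are given as description. The cells share their library, so the 11 libraries and not the cells are the units of each test.

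An RNA sensor gene was the named gene that rose most. This gene, dhx58, whose product LGP2 binds viral double-stranded RNA, had a median of 206 CPM in double-positive cells over the 11 libraries, with a lowest value of 37.4 in Cyprichromis coloratus and a highest of 367 in Lepidiolamprologus attenuatus. In the matched cells the lowest, median and highest values were 6.78, 15.8 and 43.1. It was higher in 11 of 11 libraries, and the library ranges overlapped only through Cyprichromis coloratus. Its log2 fold change was 3.38 ± 0.18 (SE, edgeR adjusted p = 3.48e-09).

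The antiviral effector genes with enough counts moved the same way. The helicase gene helz2 had a median of 478 CPM in double-positive cells and 108 in matched cells, with highest values of 840 in Shuja horei and 266 in Telmatochromis vittatus. Its log2 fold change was 2.40 ± 0.20 (SE, edgeR adjusted p = 6.86e-07), and it was higher in 10 of 11 libraries. The exception was Bathybates ferox, where none of the kept cells of any kind had a helz2 UMI. Adenosine deaminase acting on RNA, encoded by adar, edits double-stranded RNA. Its level ran from 24.9 through a median of 68.0 to 130 CPM in double-positive cells and from 5.27 through 17.2 to 31.6 in matched cells. It was higher in all 11 libraries (log2 fold change 2.06 ± 0.26 SE, edgeR adjusted p = 4.41e-05). The interferon-induced gene ifi35 changed less, with medians of 86.6 and 32.8 (log2 fold change 1.11 ± 0.18 SE, edgeR adjusted p = 0.000784, higher in 11 of 11).

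Of 74 interferon effector genes listed, 16 were matched by symbol and 4 passed the filter on low counts. Of these 4, 3 rose (helz2, adar and ifi35), where 1.88% of all genes tested rose. Their median log2 fold change was 1.58, against -0.05 for all genes tested. The fourth, nmi, an interferon-induced gene, had a log2 fold change of 0.34 ± 0.17 (SE, edgeR adjusted p = 0.515). Of 56 sensing and signalling genes considered here, 22 were matched and 11 tested, 1 rose (dhx58), and 9 had an estimate above 0, with a median of 0.14. The share of all genes that rose, 1.88%, is the background for this count too, and 1345 of all 3146 genes tested had an estimate above 0. A gene could pass the filter on low counts through the double-positive cells alone. The levels of adar and dhx58 were low in most matched sets, so these genes entered mainly through the double-positive cells. The counts of listed genes that rose therefore lean towards rising genes and are given as description. The repressor irf2 had 0.62 ± 0.17 (SE, edgeR adjusted p = 0.0981). The feedback inhibitor socs3 had 0.40 ± 0.21 (SE), the adaptor myd88 0.17 ± 0.18, the kinase jak1 0.12 ± 0.13 and the interferon gamma receptor chain ifngr1 -0.24 ± 0.28, and none of these 4 passed the test.

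**Figure D3:**
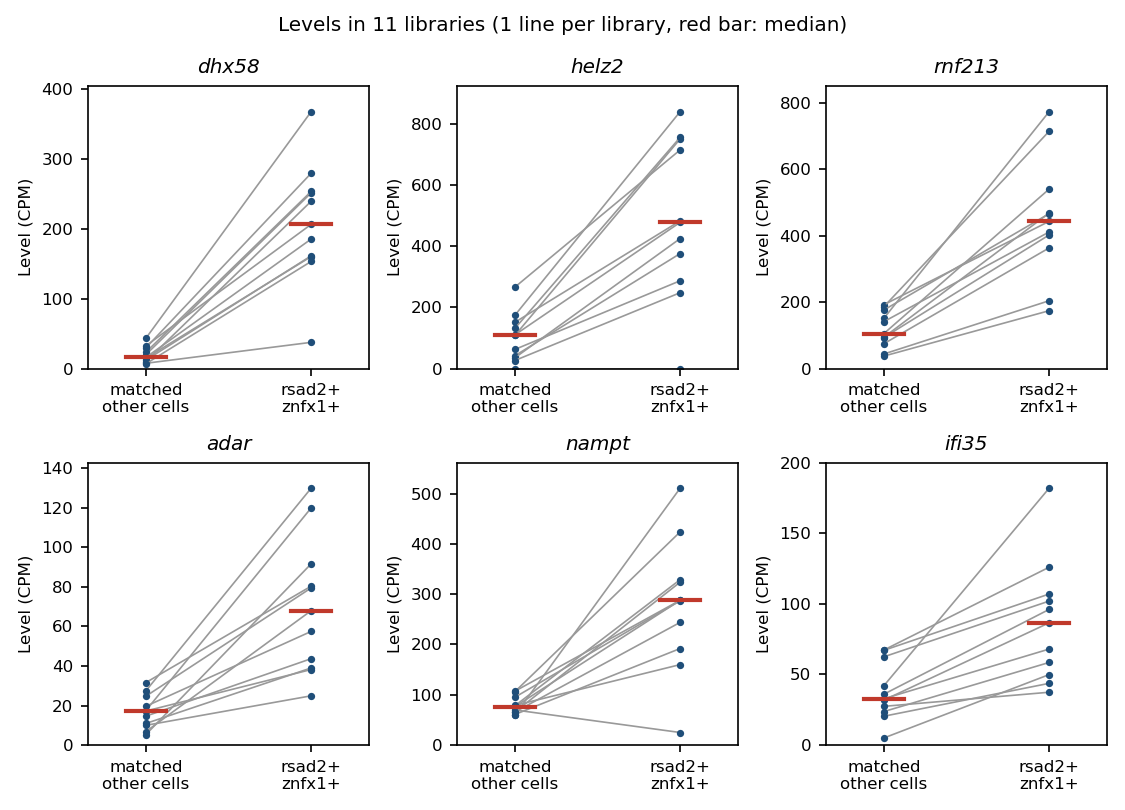
Level of 6 genes (y axes, CPM, from 0) in matched other cells and in rsad2+ znfx1+ cells (x axes), with 1 line per library and red bars at the median of 11 libraries. The median of dhx58 is 15.8 in matched and 206 in double-positive cells, every line of dhx58, rnf213, adar and ifi35 rises, helz2 is at 0 on both sides in Bathybates ferox, and nampt falls in Cyprichromis coloratus.

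Several known interferon-stimulated genes had too few counts for the test and are given as values. Of the 12 matched effector genes below the filter, upp2 and ifi30 had no UMI in either set. Of the other 10, the pooled level was higher in the double-positive cells for 8 and lower for herc4 (7.86 against 8.22 CPM) and pnpt1 (1.39 against 3.21). Of 11 sensing and signalling genes below the filter, 9 were higher and 2 lower, irf4 and ikbke. No share over all genes below the filter is set beside these counts, so they are given as description. The genes described next fall outside the rule for named genes and were chosen after their values were seen. The nucleotide kinase gene cmpk2 is rsad2's neighbour in many vertebrate genomes. It stood at 48.1 CPM in the pooled double-positive cells (exact Poisson 95% interval 39.3 to 58.2) and at 1.8 (1.08 to 2.8) in the matched cells. It was higher in 10 of 11 libraries and had no UMI in either set in Bathybates ferox. The RNA sensor gene ifih1 (MDA5) had 24.4 to 136 CPM over the libraries with a median of 43.7, against 4.98 to 24.1 with a median of 14.7, so the 2 sets did not overlap. For parp12, a mono-ADP-ribosyltransferase gene, the ranges of 24.9 to 156 and 0 to 24.6 did not overlap either. Both gaps were narrow, at 24.4 against 24.1 for ifih1 and 24.9 against 24.6 for parp12. How often other genes with few counts show such a gap was not tested. Pooled levels in double-positive and matched cells were 83.6 and 15.4 for epsti1, and 61.9 and 25.1 for irf7, the regulator of type I interferon genes. They were 33.7 and 16.4 for irf9, a DNA-binding factor of interferon signalling, and 29.6 and 5.58 for the apoptosis-linked xaf1. The level was higher in 11 of 11 libraries for epsti1, 9 for irf7, 10 for irf9 and 9 for xaf1. In contrast, the pooled level of stat3 was 152 against 146, of tyk2 86.4 against 77.6 and of tbk1 37.9 against 33.7.

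Named genes outside the listed interferon effectors also rose. The giant E3 ubiquitin ligase gene rnf213 had a median of 443 CPM (174 to 773) in double-positive cells and of 105 (37.4 to 192) in matched cells. It was higher in 11 of 11 libraries (log2 fold change 1.91 ± 0.15 SE, edgeR adjusted p = 2.51e-07). The NAD salvage enzyme gene nampt had medians of 288 and 76.2 (log2 fold change 1.70 ± 0.23 SE, edgeR adjusted p = 0.000157). It was higher in 10 of 11 libraries, and in Cyprichromis coloratus its level in the double-positive cells was 24.9. For unc93b1, which escorts nucleic-acid-sensing Toll-like receptors to endosomes, the medians were 61.1 and 38.6 (log2 fold change 1.02 ± 0.19 SE, edgeR adjusted p = 0.00458). Its call was lost with no filter on low counts, with matching on UMIs only and with at least 2 rsad2 UMIs, at adjusted p up to 0.0994.

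Smaller changes were less stable. The proteasome regulator gene psmf1 (log2 fold change 1.07 ± 0.25 SE, edgeR adjusted p = 0.0337) and the uridine kinase-like gene uckl1 (1.04 ± 0.23 SE, adjusted p = 0.0219) lost their call when certain single libraries were left out, in 7 and 5 of 11 such fits. The genes ttc3 and pxk also rose, by 0.96 and 0.94 on the log2 scale; they fall outside the rule for named genes and were chosen after their values were seen. Among the genes without a name, the lowest adjusted p belonged to LOC100700930 and LOC100703877, with log2 fold changes of 3.26 and 3.95 and higher levels in 11 of 11 libraries. For LOC100700930 the ranges of 37.4 to 199 CPM and of 0 to 19.1 did not overlap. With matched levels this low, it could pass the filter on low counts only through the double-positive cells. Its gap and its count of libraries are therefore given as description. No role is given to these identifiers.

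**Figure D4:**
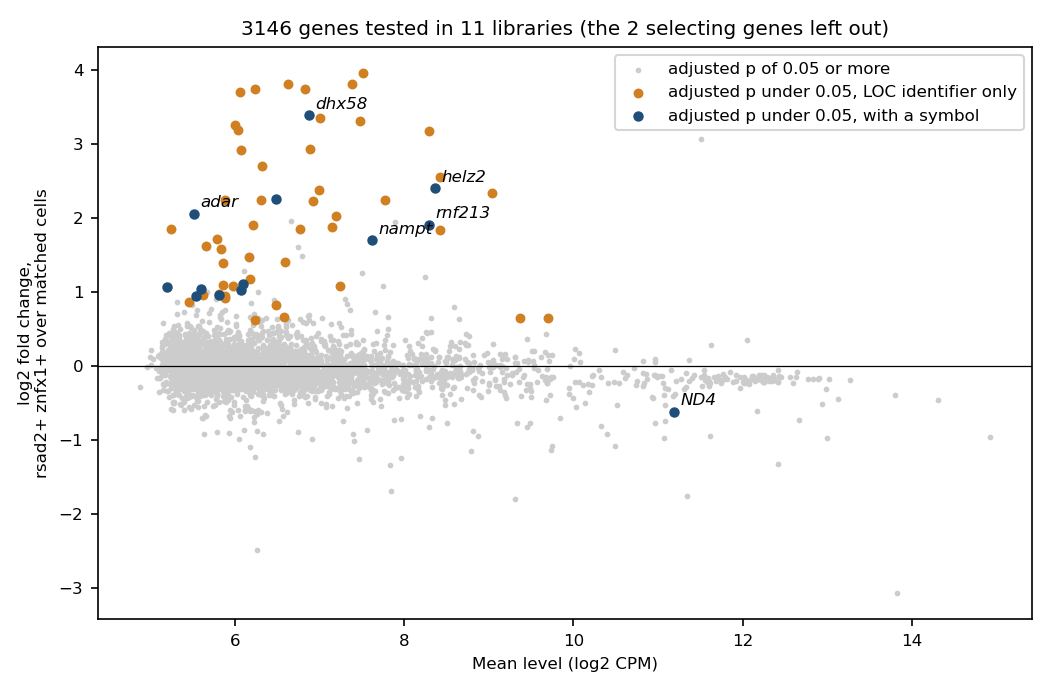
Log2 fold change between rsad2+ znfx1+ cells and matched cells (y axis) against mean level (x axis, log2 CPM) for the 3146 genes tested, with genes at an adjusted p under 0.05 in colour. The 59 higher genes form an upper group that reaches 3.95, and ND4, at -0.62, is the only gene called lower.

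The 1 gene that fell was ND4, a mitochondrially encoded subunit of respiratory complex I. Its median was 1710 CPM in double-positive cells and 2110 in matched cells, with overlapping ranges, and it was lower in 10 of 11 libraries (log2 fold change -0.62 ± 0.15 SE, edgeR adjusted p = 0.0357). This call was lost in 7 of 11 fits that left out 1 library, with adjusted p up to 0.118. It was also lost with 1 control per cell, with matching on UMIs only, with at least 2 rsad2 UMIs and without the top 5% of UMIs, with adjusted p up to 0.431. The mitochondrial share of the double-positive cells, given above, was also lower, and its part in this change was not tested.

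No gene tested in the lists of antigen display and of the programmes below was called. Of 20 antigen presentation genes, 11 were matched and 6 tested, and none passed edgeR's adjusted threshold, with a median log2 fold change of 0.13. Of all genes tested 1.88% were higher, and a list this short cannot be told from that background. The immunoproteasome subunit gene psmb8 had 0.41 ± 0.14 (SE, edgeR adjusted p = 0.238) and was higher in 10 of 11 libraries. The proteasome activator genes psme1 and psme2 had 0.30 ± 0.16 and 0.37 ± 0.16. The class II invariant chain gene cd74 had -0.09 ± 0.17, with medians of 2520 and 3320 CPM. The summed level of the 11 matched genes had a median of 3200 CPM in double-positive and 4030 in matched cells and was lower in 8 of 11 libraries. Its ranges, 1270 to 9360 and 1080 to 7110, overlapped, and this difference was not tested. Below the filter stood 5 genes of the list, with a higher pooled level in double-positive cells for 4 and a lower one for ciita. The peptide transporter gene tap1 and nlrc5, the activator of class I genes, are among these 5 and were also chosen after their values were seen. For tap1 the level was 42.5 CPM in pooled double-positive cells (interval 34.3 to 52.1) and 17.0 (14.6 to 19.7) in matched cells, and was higher in 10 of 11 libraries. The corresponding values for nlrc5 were 36.5 (28.9 to 45.5) and 20.7 (18.1 to 23.6).

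None of the tested genes passed in the lists of inflammation (5 tested of 24 listed), cell cycle (1 of 19), dissociation stress (8 of 22) and apoptosis (1 of 19). The share of all genes tested that were higher, 1.88%, is the background here too, and these short lists cannot be told from it. Log2 fold changes were 0.16 ± 0.15 (SE) for nfkb1, -0.41 ± 0.27 for the replication clamp gene pcna, and -0.15 ± 0.12 for the early response gene fosb. At an adjusted p of 0.865, 0.706 and 0.799 by edgeR none of these 3 was called. The single cell cycle gene tested was pcna. The summed level of 13 cell cycle genes had a median of 53.5 CPM in double-positive and 141 in matched cells and was lower in 8 of 11 libraries. Its ranges, 11.4 to 690 and 52.3 to 493, overlapped, and this difference was not tested. Of 66 ribosomal protein genes tested, 0 were called and 0 had an estimate above 0, and their median was -0.18. Of all 3146 genes tested, 1345 had an estimate above 0, with a median of -0.05. In the comparisons with single-gene cells described below, 48 of the 66 were above 0 against rsad2 alone (median 0.05) and 2 against znfx1 alone (median -0.08). Among the listed genes considered here, the 4 calls were therefore helz2, adar, ifi35 and dhx58.

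Markers of cell types other than the 3 lineage genes overlapped between the matched sets. The summed level of 5 T- or NK-cell markers (cd3e, cd247, cd2, itk and tcf7, of 17 listed) ran from 43.7 to 928 CPM in double-positive and from 114 to 776 in matched cells, with medians of 498 and 603. That of 6 B- or plasma-cell markers had medians of 507 and 524, and that of 5 macrophage or dendritic markers 3660 and 3630. The 3 enterocyte markers fabp1, fabp2 and mttp had medians of 3110 and 3540 and were lower in the double-positive cells in 8 of 11 libraries. Lysosome-rich enterocyte markers (34.9 against 115) and enteroendocrine markers (34.1 against 198) were also lower there in 8 of 11 libraries each, with overlapping ranges. The highest lysosome-rich value was 995 in double-positive and 292 in matched cells. B- or plasma-cell, macrophage or dendritic, goblet and epithelial markers were lower in 7 of 11 libraries each. Granulocyte and fibroblast markers were higher in 7 and 6. The double-positive sets hold fewer cells, and the part of counting error in these sums was not tested. Whether these differences in make-up bear on the gene calls was not tested.

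**Figure D5:**
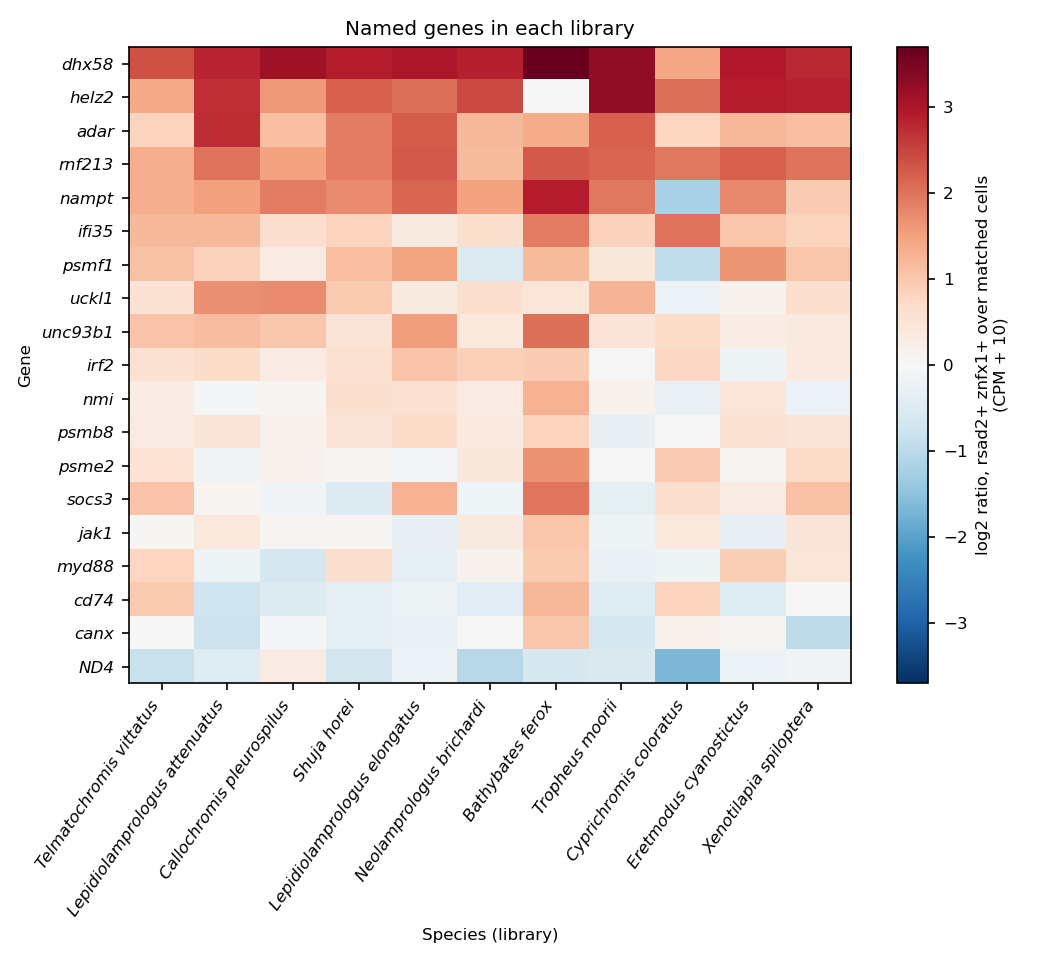
Log2 ratio of rsad2+ znfx1+ over matched cells (colour, with 10 added to each level in CPM) for 19 named genes (rows) in each of 11 libraries (columns, in order of the share of double-positive cells). The upper rows from dhx58 to rnf213 are red in almost every library, helz2 is at 0.00 in Bathybates ferox, and nampt is -1.19 in Cyprichromis coloratus.

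The ratios of these genes varied between libraries, and the part of counting error in this was not tested. With 10 added to each level, the log2 ratio of dhx58 ran from 1.44 in Cyprichromis coloratus to 3.64 in Bathybates ferox. Cyprichromis coloratus was also the lowest for adar (0.81), nampt (-1.19), psmf1 (-0.92) and uckl1 (-0.21), but the highest for ifi35 (2.0). The ratios of this library rest on few UMIs. In its double-positive and matched cells adar had 2 and 4 UMIs, ifi35 4 and 2, and dhx58 3 and 3. The 13 double-positive cells of Cyprichromis coloratus included no lck+ cell. The ratio of rnf213 varied least among dhx58, helz2, adar, rnf213 and nampt, from 1.17 in Neolamprologus brichardi to 2.28 in Bathybates ferox. In Telmatochromis vittatus, where the cells were most common, the matched cells themselves had the highest helz2 level of any library, 266 CPM.

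Individual cells were counted for the 3 genes dhx58, helz2 and rnf213. Of the 493 double-positive cells, 454 (92.1%) carried a UMI of at least 1 of them, against 51.4% of the 2459 matched cells. The shares for single genes were 74.4% and 28.5% for helz2, 71.6% and 33.9% for rnf213, and 41.6% and 7.04% for dhx58. All 3 genes were called in the comparison of the same cells, so these shares describe that result cell by cell and add no test of the label. The ligand genes ifng and ifng1 were not matched under those symbols and are not analysed here.

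The double-positive cells were also set beside cells with only 1 of the selecting genes. Over the same 11 libraries, the median dhx58 level was 13.1 CPM in cells with neither gene, 31.1 with znfx1 alone, 45.0 with rsad2 alone and 206 with both. For rnf213 they were 87.0, 178, 180 and 443. The rsad2-only values rest on few cells, and their ranges reached 0 to 360 for dhx58.

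Against depth-matched cells with znfx1 alone, 1 per double-positive cell, 29 of 1736 genes were higher (1.67%) and 0 were lower by edgeR, with 143 genes at an unadjusted p under 0.05 in either direction. Of the 29, 28 were also among the 59, which is 96.6% of the first list and 47.5% of the second; both comparisons use the same double-positive cells. The change of dhx58 was 2.70 ± 0.23 (SE, edgeR adjusted p = 4.47e-06), and that of helz2 1.48 ± 0.25 (adjusted p = 0.00249). The level of znfx1 itself was higher than in the znfx1-only cells, by 1.58 ± 0.13 (SE) on the log2 scale, in 11 of 11 libraries. This comparison therefore does not hold znfx1 constant and cannot isolate the part of rsad2. Against cells with rsad2 alone, possible in 5 libraries, 0 of 649 genes were called in either direction by edgeR (0%), and 31 had an unadjusted p under 0.05. The selecting gene znfx1, left out of this count, is absent from the rsad2-only cells by rule. Even so, its change of 9.82 ± 0.58 (SE) missed the threshold (edgeR adjusted p = 0.162). The count of 0 therefore does not show that the 2 sets of cells are alike. The estimates there were 1.46 ± 0.63 for dhx58 (SE, edgeR adjusted p = 0.918), 0.56 ± 0.28 for helz2 and 0.69 ± 0.32 for rnf213. Of the 59 genes, 18 could be tested, and 16 of these had an estimate above 0, with a median of 0.57. The rsad2-only cells were shallower in Callochromis pleurospilus (median 2576 against 3973 UMIs) and Shuja horei (1529 against 2360.5).

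The response was then read within lineages. In lck+ cells, 5 libraries had at least 10 double-positive cells. There 36 of 1199 genes were higher (3%) and 5 lower (0.417%). The level of dhx58 in lck+ double-positive cells was 567 CPM in Lepidiolamprologus elongatus, 457 in Lepidiolamprologus attenuatus, 272 in Telmatochromis vittatus, 138 in Callochromis pleurospilus and 94.8 in Shuja horei. In matched lck+ cells the values were 34.3, 41.8, 62.7, 30.1 and 44.2 in the same order, and the sets did not overlap (log2 fold change 2.72 ± 0.33 SE, edgeR adjusted p = 3.11e-05). With matched levels this low, dhx58 could pass the filter on low counts here only through the double-positive cells. Its separation in lck+ cells is therefore given as description. The 94.8 of Shuja horei is 3 UMIs.

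The level of helz2 in lck+ double-positive cells was 791, 1140, 1160, 704 and 1360 in that order, against 96.2, 112, 415, 188 and 221. These sets did not overlap either (log2 fold change 2.36 ± 0.24 SE, edgeR adjusted p = 1.15e-05). The level of nampt was 567, 274, 409, 485 and 442 against 61.8, 39.2, 132, 130 and 63.2 (log2 fold change 2.32 ± 0.26 SE, edgeR adjusted p = 2.29e-05). Matched levels of nampt were low in most of these libraries, so nampt too passed the filter on low counts mainly through the double-positive cells. Its change in lck+ cells is therefore also given as description. The T-cell kinase lck itself differed by -0.01 ± 0.17 (SE) between these sets, both of which were taken as lck+. ND4 fell by 0.76 on the log2 scale (edgeR adjusted p = 0.0114) and was lower in 5 of 5 libraries.

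In unclassified cells, with none of the 3 lineage genes, 8 libraries qualified. There 41 of 1983 genes were higher (2.07%) and 3 lower (0.151%). The log2 fold changes were 3.40 ± 0.28 for dhx58 (SE, edgeR adjusted p = 2.01e-05), 2.02 ± 0.19 for nampt (adjusted p = 3.93e-05) and 1.11 ± 0.24 for ifi35 (adjusted p = 0.0269). Here too the filter on low counts could admit a gene through the double-positive cells alone, so these sizes are given as description. Between the lck+ and the unclassified cells 25 higher genes were shared, 69.4% of the lck+ and 61.0% of the unclassified list. The difference between the 2 responses was tested as an interaction in the 5 libraries with both. By edgeR 0 of 2062 genes were called in either direction (0%), and 56 had an unadjusted p under 0.05, which does not show that the responses are equal.

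Too few csf1r+ and mogat2+ cells were double-positive for a test across libraries, and their pooled levels are given with counting intervals only. In 16 csf1r+ double-positive cells dhx58 stood at 529 CPM (407 to 677), against 23.6 (12.9 to 39.7) in 80 matched csf1r+ cells. For helz2 the levels were 479 (363 to 620) and 115 (89.2 to 146). In 60 mogat2+ double-positive cells dhx58 stood at 83.4 (68.3 to 101), against 5.36 (3.67 to 7.57) in 300 matched mogat2+ cells. For helz2 the mogat2+ levels were 189 (166 to 215) and 56.3 (50.4 to 62.6). The counting intervals did not overlap for these genes in either lineage, and neither the spread between cells nor that between animals is in them.

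Across the 25 libraries, the thinned share of double-positive cells was related to 5 other measures, with permutation p-values adjusted over the 5. With the lck+ share of kept cells, Pearson's r was 0.673 (adjusted permutation p = 0.0049) and Spearman's rho 0.386 (adjusted permutation p = 0.0938). Without Telmatochromis vittatus and Lepidiolamprologus elongatus, the libraries farthest from the median lck+ share, r was 0.442. With the csf1r+ share r was -0.471 (adjusted permutation p = 0.0394) and rho -0.364, and with the mogat2+ share r was -0.437 (adjusted permutation p = 0.0394) and rho -0.387. Without the 2 libraries farthest from the median, Trematocara zebra and Haplotaxodon microlepis for both measures, r was -0.579 and -0.427.

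The fourth measure was the summed level of the interferon effector list, without the selecting genes, in cells that carried neither rsad2 nor znfx1. That level ran from 87.9 to 304 CPM with a median of 165, and r was 0.424 (adjusted permutation p = 0.0394) and rho 0.429 (adjusted permutation p = 0.0938). Without Callochromis pleurospilus and Shuja horei r was 0.364. With the log10 median depth r was -0.19 (adjusted permutation p = 0.343). None of the 5 rank correlations passed the adjusted threshold in thinned cells. Without thinning, that with the csf1r+ share passed (rho = -0.594, adjusted permutation p = 0.0097). The relatedness of the species was left out of these tests, and the lineage shares of 1 library compete with each other because they are parts of the same total.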

How the data were processed

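Libraries used 10x Chromium 3' v3.1 reagents, per the labels. Cell Ranger 5.0.0 made the count matrices, per the file headers (5.0 in the submitters' processing notes). The deposited values are raw UMI counts, not normalized, and other deposited columns hold names and barcodes. The genome build, annotation and cell-calling settings are not given in the sources used here. LOC identifiers make up 30456 of 42622 features, and the Haplochromis burtoni name table matched 0 of them.

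Barcodes with at least 500 UMIs and 250 genes were kept (101710 of 115682). Doublets were not called; removal of the top 5% of UMIs per library and of cells with more than 1 lineage gene served as alternatives. Member cells were matched without reuse to up to 5 non-member cells (1 in the single-gene comparisons), and summed counts were tested with edgeR 4.0.16 (R 4.3.3; TMM, filterByExpr, quasi-likelihood F test, library as block, Benjamini-Hochberg over all genes tested). Standard errors are the absolute log2 fold change over the square root of F. DESeq2 1.42.0 was an alternative. Levels in the text are UMIs per 1000000 UMIs of the summed cells. Class rates used sign-flip and correlations used label permutation, with 100000 resamples (scipy 1.17.1, numpy 2.4.6, Python 3.11.15). Libraries are the units. The p-values of the gene and class-rate tests judge a within-library difference against its variation over the libraries of different species. Those of the correlations compare the values of the libraries with shuffled pairings.

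On simulated data with 100 genes changed at each fold, the comparison with matched cells recovered 75% of 4-fold and 77% of 2-fold changes and called 0.339% of unchanged genes. In the rsad2-only comparison, with 81 genes at each fold, recovery was 76.5% and 24.7%. There the changed genes were a large part of the 651 simulated, with 489 unchanged, which eases the adjusted threshold. In the real comparison even znfx1, at a log2 fold change of 9.82, was not called (edgeR adjusted p = 0.162). The simulated recovery therefore does not give the power of the real rsad2-only comparison.

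The cells, lists and tests were chosen with earlier results of these data known. Named genes are the selecting and lineage genes; called genes of the interferon and antigen lists, and up to 5 others of each over 10 CPM; the 10 highest and lowest called genes with a symbol, a mean log2 level of at least 4 and 1 sign in 75% of libraries (5 in class comparisons); and up to 4 genes of each other list. Genes outside this rule are identified as such in the text. Symbols that begin like ribosomal proteins but name 6 other genes, mostly kinases, were left out of the ribosomal count after its values were seen. Comparisons within csf1r+ cells (0 libraries with 10 members) and mogat2+ cells (1 library), and their interaction with lck+ cells, could not be fitted. The lck+ against unclassified interaction was added after seeing the data. A listed gene is not reported here, though counts over all genes tested include it.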

Additional observations from a re-analysis of the deposited data

How the results depend on the processing

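No called gene, lineage rate difference or Pearson correlation changed direction under the alternatives run. Spearman's rho with the log10 median depth did, from -0.0715 to 0.191 without thinning and to 0.106 without Trematocara zebra and Haplotaxodon microlepis. Of 28 named genes that were not called against matched cells, 15 had estimates of both signs over the alternatives, among them socs3 (-0.31 to 0.57), myd88 (-0.27 to 0.38), jak1 (-0.17 to 0.28) and pcna (-0.73 to 0.28). The 59 genes higher against matched cells became 62 with another normalization, 79 by DESeq2, 55 with a 1000-UMI minimum, 50 with at least 2 rsad2 UMIs (6 libraries), 57 with matching on UMIs only, 55 against cells with neither selecting gene, 54 without cells of more than 1 lineage gene, 63 without cells over 20% mitochondrial, and 49 to 66 with 1 library left out. The count was 29 with 1 control per cell (1794 genes tested), 37 without the top 5% of UMIs (1793 tested), and 205 with no filter on low counts. These lists held unlike parts of the 59 genes. All 59 were kept with another normalization and by DESeq2. With no filter 42 were kept, with at least 2 rsad2 UMIs 36 (2509 tested), without the top 5% of UMIs 35 and with 1 control per cell 28. The single lower gene became 354 with no filter, 6 by DESeq2, 5 against cells with neither gene, 5 with 2 rsad2 UMIs, 2 without cells of more than 1 lineage gene, 2 without over 20% mitochondrial, 3 without the top 5% and 0 to 4 with 1 library left out. It was 0 without Lepidiolamprologus attenuatus, Xenotilapia spiloptera or Shuja horei and 4 without Callochromis pleurospilus. The calls of dhx58, helz2, rnf213, adar and nampt held in every alternative where the gene was tested; ifi35 lost its call with at least 2 rsad2 UMIs (adjusted p = 0.14 by edgeR).

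With no filter, counts of higher and lower genes were 95 and 146 in lck+ cells, 144 and 501 in unclassified cells, 17 and 44 against rsad2-only cells, 145 and 31 against znfx1-only cells, and 24 and 8 in the interaction. The cause was not tested. With a 1000-UMI minimum 8 genes were lower in lck+ cells. Leave-one-out counts of lower genes ran from 3 (without Lepidiolamprologus elongatus) to 18 (without Callochromis pleurospilus) in lck+ cells, from 1 (without Shuja horei) to 11 (without Callochromis pleurospilus) in unclassified cells, and from 0 to 1 against znfx1-only cells; higher genes in lck+ cells ran from 36 to 53.

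The mogat2+ correlation missed the adjusted threshold unthinned (r = -0.37, adjusted permutation p = 0.0811), thinned to 500 UMIs (r = -0.419, 0.0551) and without Trematocara zebra and Haplotaxodon microlepis (r = -0.427, 0.0613). That with the effector list missed it at 500 UMIs (r = 0.339, 0.118) and without those libraries (r = 0.403, 0.0638). Libraries could not be paired with one another, because the labels give no replicate numbers to pair them by. Within each library, member and control cells were already paired through the library block. Depth limits every share: thinned to 500 UMIs, 114 cells met the rule.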
